A study of Mus musculus with 2 samples.

Results

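Mir191 and Mir425 are microRNA (miRNA) genes that lie side by side on mouse chromosome 9, and Gm24083 is an annotated miRNA gene that covers Mir191 on the other strand. These 3 genes, of 2202 miRNA genes counted, were selected by their symbols in the annotation. They were chosen with measured values in view, namely the own-strand level of Mir191 and its count of 0 when strand is ignored, so those values are given as a description and support no test. The study profiled short RNA (labelled as under 30 bases) from adrenal glands of male B6CASTF1/J mice, an F1 hybrid of the C57BL/6 and CAST/EiJ strains, aged 10 days. The gland consists of a cortex that makes steroid hormones and a medulla of chromaffin cells. There was 1 group of 2 libraries, biological replicates 1 and 2, with no treatment, no mutation and no second condition. The labels give each library its own male but the same donor record, and do not say whether glands were pooled.

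A miRNA gene is transcribed as part of a longer RNA that folds into a hairpin. The hairpin is cut out and then trimmed to mature strands, called arms, and an arm loaded on an Argonaute protein directs it to messenger RNAs that pair with the seed near the 5′ end of the arm. The hairpins of Mir191 and Mir425 are known to be made from a common primary transcript and to be present in many tissues, and miR-191 is often used as a reference for normalising miRNA measurements. In human cells, miR-425 is known to repress the messenger RNA of atrial natriuretic peptide.

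The mature arms are shown with the seed, bases 2 to 8, in capitals, because the seed decides which family a miRNA belongs to. The sequences are from RefSeq on GRCm38.p6, plus strand, where they lie at chr9:108568325-108568347 (miR-191-5p), chr9:108568367-108568388 (miR-191-3p), chr9:108568789-108568811 (miR-425-5p) and chr9:108568830-108568850 (miR-425-3p).
mmu-miR-191-5p: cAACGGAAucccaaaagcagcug
mmu-miR-191-3p: gCUGCACUuggauuucguuccc
mmu-miR-425-5p: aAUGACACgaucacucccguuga
mmu-miR-425-3p: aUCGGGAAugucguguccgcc
No seed was shared between the arms of Mir191 and those of Mir425. Each arm was compared with 1736 mature sequences of genes other than its own, from a reference set that is not complete. None had the seed of either Mir191 arm or of miR-425-3p, and 1 had that of miR-425-5p. This was miR-489-3p, from chr6:3721922-3721944 on the minus strand, shown because it is the single match.
mmu-miR-489-3p: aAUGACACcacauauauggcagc
Mir489 had 0 own-strand counts in replicate 1 and 0 in replicate 2, which allows up to 1.05 and 0.974 CPM (read counts scaled to a common library total). Mir425 was thus the detected gene of the pair that carries the AUGACAC seed in this gland.

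The hairpins are shown with both arms in capitals, because the files count reads per hairpin and not per arm.
Mir191 hairpin: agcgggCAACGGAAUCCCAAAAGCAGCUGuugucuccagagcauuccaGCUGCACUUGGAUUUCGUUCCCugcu
Mir425 hairpin: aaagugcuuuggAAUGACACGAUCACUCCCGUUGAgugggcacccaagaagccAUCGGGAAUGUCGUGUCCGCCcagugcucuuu
A count for Mir191 or Mir425 therefore sums both arms, and which arm gave the reads cannot be read from it. The Mir191 hairpin had a predicted folding energy of -35.0 kcal/mol over 74 bases and the Mir425 hairpin one of -31.7 kcal/mol over 85 bases, each with 56 paired bases (RNAfold). Per base, 17.4% of the 2202 annotated miRNA transcripts folded more strongly than Mir191 and 48.8% more strongly than Mir425. The longest run of bases that either hairpin shared with a miRNA transcript outside the cluster, on either strand, was 12 bases for Mir191 and 13 bases for Mir425, and the hairpins of Mir191 and Mir425 shared 5 with each other. The files leave multiply mapped reads unassigned, and neither hairpin has a near-identical copy among the counted genes.

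On the mm10 build, which is GRCm38, GENCODE M21 places Mir191 (ENSMUSG00000105497.1) at chr9:108568319-108568392 and Mir425 (ENSMUSG00000065579.1) at chr9:108568777-108568861, both on the plus strand and 384 bases apart. Both lie in exon 1 of transcript 201 of the long noncoding RNA gene 4833445I07Rik (chr9:108567533-108569174, plus strand). Transcript 202 of that gene has 2 exons, with Mir191 in its intron, and ends 2 bases before Mir425. Dalrd3, a protein-coding gene often named as the host, starts 1024 bases after the end of Mir425 in GENCODE M21. In RefSeq, the Dalrd3 gene runs from 108567484 to 108572773 on the plus strand and spans both miRNA genes. Which host transcript was made in these glands was not measured, since the libraries hold short RNA.

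Gm24083 (ENSMUSG00000092915.1) lies at chr9:108568295-108568414 on the minus strand. Its 120-base annotated transcript from GENCODE M21 holds the whole 74-base Mir191 hairpin in reverse complement, shown in capitals, with 22 bases before it and 24 bases after it.
Gm24083: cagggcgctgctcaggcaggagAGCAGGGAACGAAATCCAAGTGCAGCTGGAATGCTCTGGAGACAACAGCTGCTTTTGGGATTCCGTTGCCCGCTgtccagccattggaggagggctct
The predicted folding energy of this transcript was -58.6 kcal/mol. Gm24083 does not reach Mir425, which starts 362 bases further on and overlaps no miRNA gene.

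The files give each gene 3 counts, on its own strand, without regard to strand and on the opposite strand. In replicate 1, Mir191 had 19225 counts on its own strand, 0 without strand and 0 on the opposite strand. In replicate 2 it had 22660 counts on its own strand, 0 without strand and 0 on the opposite strand. Gm24083 showed the mirror image, with 0 counts on its own strand and 0 without strand in both libraries, and 19225 and 22660 counts on the opposite strand in replicates 1 and 2. The same reads thus entered the Mir191 row as own-strand counts and the Gm24083 row as opposite-strand counts, and entered neither row when strand was ignored. They equalled 3.23% of the reads called ambiguous without strand in replicate 1 and 4.41% in replicate 2. With strand taken into account, the ambiguous row was at 0 in both libraries. Of the reads on either strand of the overlap, Gm24083 held 0%, which allows up to 0.0156% in replicate 1 and 0.0132% in replicate 2, for counting error only. Mir425 had 4467 own-strand counts, 4468 without strand and 1 on the opposite strand in replicate 1, and 3486, 3486 and 0 in replicate 2. Its counts on the own strand and without strand were thus nearly equal.

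**Figure D1:**
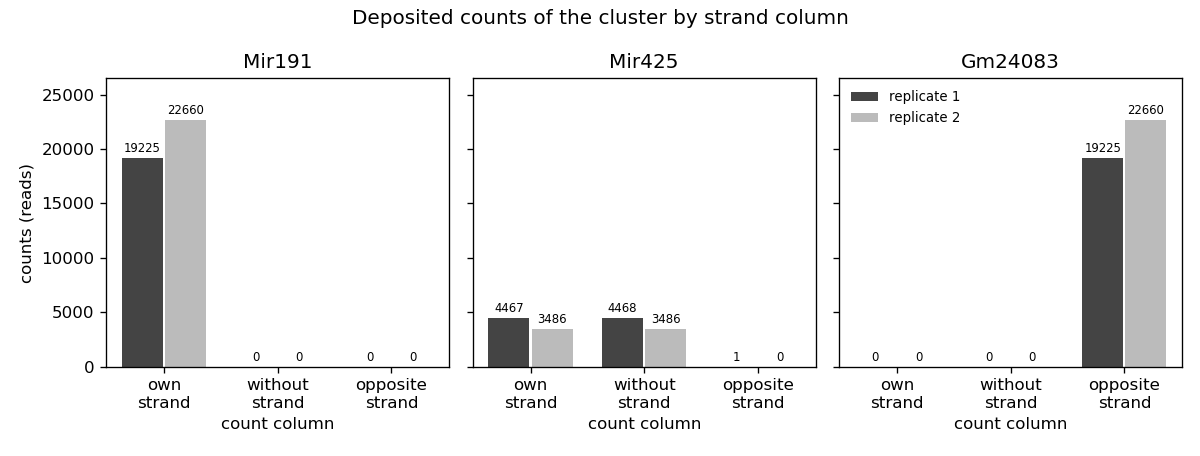
Bars give the deposited counts (reads, y axis) of Mir191, Mir425 and Gm24083 in each of the 3 count columns (x axis), with dark bars for replicate 1 and light bars for replicate 2. The own-strand bars of Mir191, 19225 and 22660 counts, reappear as the opposite-strand bars of Gm24083, and both genes are at 0 without strand.

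Among 32 pairs of miRNA genes that overlap on opposite strands, Mir191 with Gm24083 had the fifth largest number of own-strand reads. The other pairs with the most reads were Mir378a with Gm25301, Mir126a, an endothelial miRNA, with Mir126b, and Mir30e with Mir30f. In these pairs the weaker gene had 0, 40 and 0 own-strand counts in replicate 1, and 1, 19 and 0 in replicate 2. Of 21 pairs with at least 100 reads in each library, the weaker strand was at 0 in both libraries in 12, Mir191 with Gm24083 among them. A partner strand with no counts was thus not particular to Mir191.

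On its own strand Mir191 had 6760 CPM in replicate 1 and 7357 CPM in replicate 2, with a mean of 7059 ± 422 CPM (SD, n = 2). CPM scale each count to the total of own-strand reads assigned to miRNA genes, 2843734 in replicate 1 and 3080062 in replicate 2. Mir191 held 0.676% of these reads in replicate 1 (95% Wilson interval 0.667 to 0.686) and 0.736% in replicate 2 (0.726 to 0.745). It was the 30th highest gene by CPM in each library and the 31st by mean CPM. Mir425 had 1571 CPM in replicate 1 and 1132 CPM in replicate 2, with a mean of 1351 ± 310.4 CPM (SD, n = 2). Its share was 0.157% in replicate 1 (0.153 to 0.162) and 0.113% in replicate 2 (0.109 to 0.117), and its place was 66 in replicate 1, 79 in replicate 2 and 73 by mean CPM. Both genes stood in the upper part of the profile, where 501 genes in replicate 1 and 487 in replicate 2 had at least 1 CPM. Gm24083, at 0 in both libraries, did not reach the minimum of 10 counts over both libraries used below, so 2 of the 3 genes enter the ratios. Intervals and limits cover counting error within a library only. They take reads as independent, but the files record no molecular identifiers, so repeated copies of a molecule cannot be told apart.

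**Figure D2:**
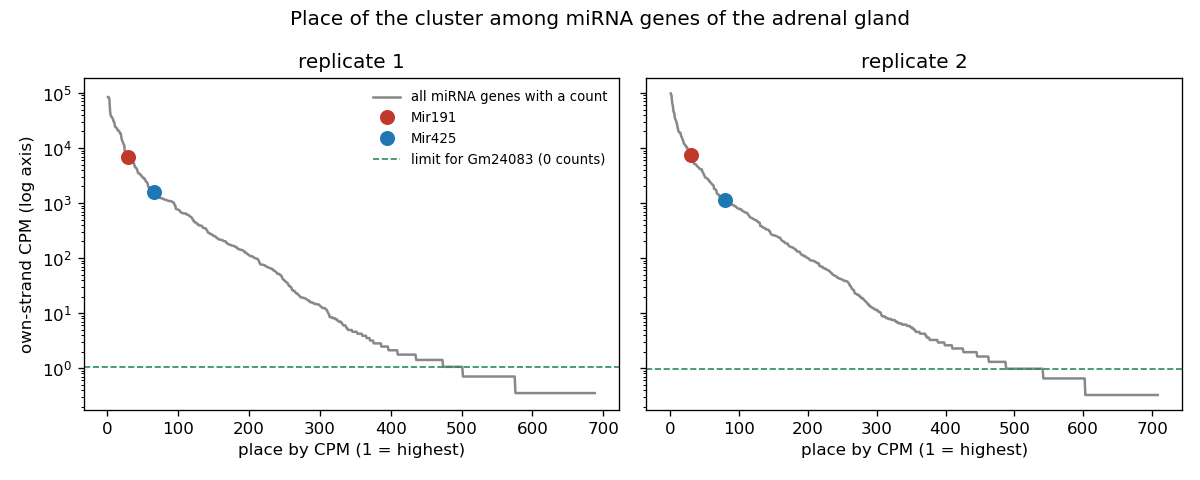
Own-strand CPM (y axis, log scale) of every miRNA gene with a count, ordered from highest to lowest (x axis), in replicate 1 (left) and replicate 2 (right). Mir191 sits at place 30 in both panels and Mir425 at places 66 and 79, and the dashed line marks the 1.05 and 0.974 CPM that a count of 0 allows for Gm24083.

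Within the cluster Mir191 was the more abundant gene in both libraries. Per 100 bases of annotated gene, Mir191 had 9136 CPM and Mir425 1848 CPM in replicate 1, a ratio of levels of 4.94, and 9942 CPM and 1332 CPM in replicate 2, a ratio of 7.47. On the log2 scale this ratio of levels per length was 2.31 in replicate 1 (exact 95% interval 2.26 to 2.35) and 2.90 in replicate 2 (2.85 to 2.95), with a mean of 2.60 ± 0.42 (SD, n = 2). These intervals cover counting error and not the spread between animals, so the 2 values describe these libraries. Without division by length the ratios of counts were 4.30 and 6.50, or 2.11 and 2.70 on the log2 scale. The libraries hold RNA under 30 bases, shorter than either hairpin, so the count need not scale with gene length. The scaling of the libraries cancels in this ratio. Mir191 held 81.1% of the counts of both genes in replicate 1 (95% Wilson interval 80.6 to 81.6) and 86.7% in replicate 2 (86.2 to 87.1). The sum of both genes was 0.833% of assigned reads in replicate 1 (0.823 to 0.844) and 0.849% in replicate 2 (0.839 to 0.859).

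Between the libraries, Mir191 had a log2 ratio of -0.12, replicate 1 over replicate 2 (exact 95% interval -0.15 to -0.09), and Mir425 one of 0.47 (0.41 to 0.54). Mir425 was 1.39-fold higher in replicate 1, and Mir191 was 1.09-fold higher in replicate 2 by assigned own-strand reads but level with replicate 1, at a log2 ratio of 0.010, when scaled to all reads in the files. Neither of the 2 genes passed 2-fold, while 99 of 444 genes with at least 10 own-strand counts did (22.3%), 49 with a higher level in replicate 1 (11.0%) and 50 with a higher level in replicate 2 (11.3%). Among the 257 genes that averaged 100 counts or more, 43 passed 2-fold (16.7%). The median absolute log2 ratio of all 444 genes was 0.56 and their median log2 ratio -0.07. A smaller absolute log2 ratio than that of Mir191 was found in 13.8% of the other genes, and a smaller one than that of Mir425 in 43.1%. Among genes that averaged 100 counts or more, where counting noise is less, these shares were 17.2% and 51.2%. By this scaling Mir191 lay among the genes that differed least between the libraries, and Mir425 near the middle. With 1 library on each side these ratios have no replicate check and carry no p-value.

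The libraries differed elsewhere in the profile, which bears on any ratio taken relative to the total. Mir122, the defining miRNA of hepatocytes, had 29424 CPM in replicate 1 and 97850 CPM in replicate 2. With Mir122 left out of the totals, the log2 ratio was -0.23 for Mir191 and 0.37 for Mir425. The 9 striated muscle markers summed to 929.1 and 3337 CPM in replicates 1 and 2, nearly all of it Mir206, at 918.5 and 3305 CPM. Of the 4 that had at least 10 counts, 3 were past 2-fold with a higher level in replicate 2 (Mir206, Mir499 and Mir133b), beside 22.3% of all genes. However, Mir206 was the 1 with at least 100 counts, and Mir133a-2 was at 0. By symbol, 7 of 8 blood cell markers were found, all but Mir486b. They summed to 1546 and 1616 CPM, with Mir142b at 0 in both libraries. Of their 6 members with at least 10 counts, 2 were past 2-fold with a higher level in replicate 1 and 2 with a higher level in replicate 2, and the median log2 ratio was 0.06. Higher in replicate 1 were Mir451a, a red cell miRNA, at 566.9 and 233.8 CPM in replicates 1 and 2, and Mir144 (135.7 and 45.8 CPM). Mir150, a lymphocyte miRNA (291.9 and 786.3 CPM), and Mir486 (17.2 and 42.2 CPM) were higher in replicate 2. Mir486 rested on 49 and 130 counts and overlaps Mir3107 on the other strand by 90 bases. Whether they share a near-identical arm was not determined, so the direction of Mir486 is uncertain. Mir142 and Mir223 had log2 ratios of 0.09 and 0.03. The neuroendocrine and chromaffin markers summed to 40002 and 37842 CPM in replicates 1 and 2, with Mir124a-1 and Mir124a-3 at 0. Mir375 made up most of these sums, at 34144 and 34383 CPM. The 6 members with at least 10 counts had a median log2 ratio of 0.82, and apart from Mir375 (-0.01) their ratios ran from 0.67 to 1.19, all higher in replicate 1, with Mir7b at 5272 and 3120 CPM and 1 member, Mir7-2, past 2-fold. The smooth muscle and fibroblast markers summed to 40292 and 34060 CPM in replicates 1 and 2, with Mir199a-1 at 0. Mir143 made up most of these sums, at 37388 and 30258 CPM. Mir214 (1683 and 2088 CPM) and Mir145a (1203 and 1697 CPM) were higher in replicate 2, and Mir199a-2 had 18.6 and 16.6 CPM. The 4 members with at least 10 counts had a median log2 ratio of -0.07. The endothelial marker Mir126a had 84263 and 45250 CPM. The part of these differences in the ratios of Mir191 and Mir425 was not tested. In bulk glands, fewer cells of a type and less RNA per cell cannot be told apart. The files leave multiply mapped reads unassigned, so counts of genes with near-identical copies are uncertain. Low counts or 0 in numbered copies (Mir1a, Mir133a, Mir124a and Mir199a genes) therefore do not show that the miRNA was absent or scarce. Mir7-1, Mir7-2, Mir129-1 and Mir129-2 are numbered copies too, so their levels and ratios are uncertain.

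Mir191 and Mir425 were set beside a list of 20 miRNA genes often used to normalise such measurements, which includes both. All 20 had at least 10 counts, and 2 passed 2-fold (Mir24-2, 2.45-fold higher in replicate 1, and Mir26a-2, 8.44-fold higher in replicate 2), beside 22.3% of all genes. The list had a median log2 ratio of 0.01, against -0.07 over all genes. By absolute log2 ratio, smallest first, Mir191 stood at place 7 of the 20 and Mir425 at place 11. The smallest belonged to Mir16-2 (231.7 CPM in replicate 1 and 236.0 CPM in replicate 2), Mir423 (2762 and 2841 CPM), Mir25 (394.9 and 382.5 CPM) and Mir361 (2261 and 2148 CPM). Mir30d (6134 and 10958 CPM) and Mir93 (5526 and 4691 CPM) were, with Mir191, the most abundant of the list by CPM. A stretch of 18 bases also occurs in another miRNA transcript for 9 of the 20, among them Mir16-2, Mir24-2 and Mir26a-2, and the levels of those 9 are uncertain. Mir191 and Mir425 have no such stretch.

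**Figure D3:**
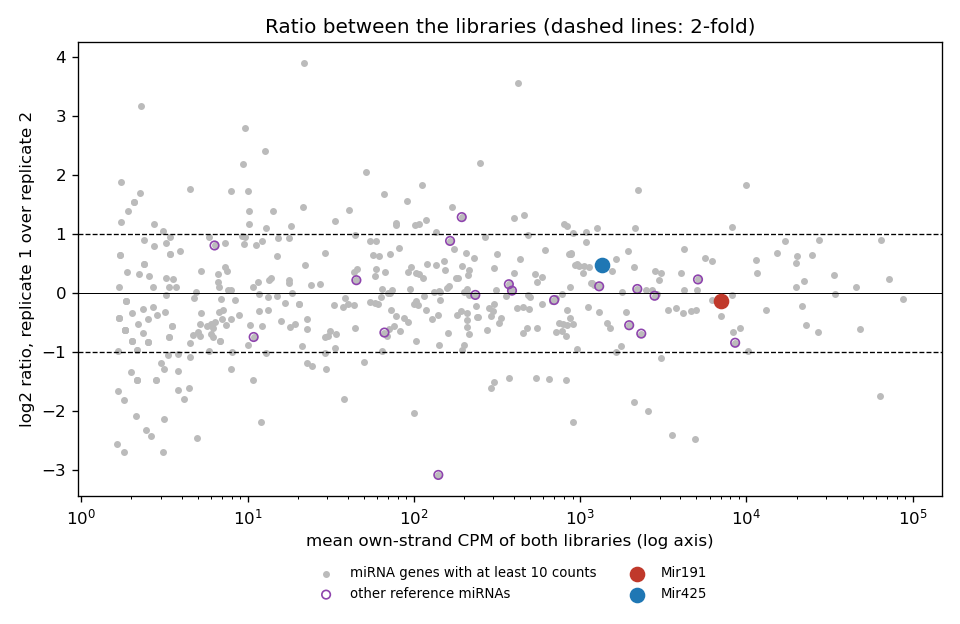
Each point is a miRNA gene with at least 10 own-strand counts over both libraries, with its mean CPM (x axis, log scale) and its log2 ratio of replicate 1 over replicate 2 (y axis). Mir191 at -0.12 and Mir425 at 0.47 lie between the dashed lines that mark 2-fold, as do all but 2 of the list of reference miRNAs (open circles for its other members).

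Genes that lie close together on a strand can come from a common transcript, so the difference between the log2 ratios of Mir191 and Mir425 was set beside that of other neighbours. The pair differed by 0.59 on the log2 scale. Of the other 100 pairs of genes next to each other within 10000 bases, both with at least 100 counts over the libraries, 56 differed by more, and their median difference was 0.67 (quartiles 0.37 and 1.16). Mir191 with Mir425 was at place 45 of 101, smallest first. Its neighbours in that order were Mirlet7f-1 with Mirlet7a-1 (0.57) and Mir376b with Mir376a (0.60). The pair thus stood near the middle of a wide spread. Some of the other pairs hold genes whose counts are uncertain because of shared stretches, among them Mir16-1, Mir16-2, Mir24-1, Mir24-2 and Mir92-1. Chromosome 12 gave 44 of the pairs, with a median of 0.60, and the other 56 pairs had a median of 0.80. The difference in level within the cluster, 2.60 on the log2 scale per length, was exceeded by 38 of the 100 other pairs, whose median was 1.85. A gene can belong to more than one pair, so pairs are not independent.

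**Figure D4:**
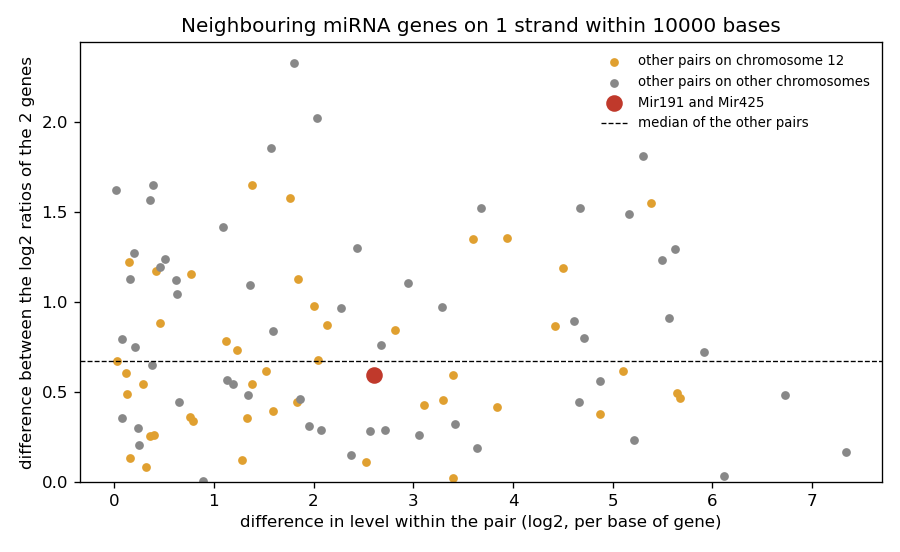
Each point is a pair of neighbouring miRNA genes on a strand, with the difference in level within the pair (x axis, log2 per base of gene) and the difference between the log2 ratios of its genes across the libraries (y axis). Mir191 with Mir425 (large point) lies at 2.60 and 0.59, just under the dashed median of the other pairs at 0.67.

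The genes closest to Mir191 in own-strand log2 CPM over the 2 libraries were Mir30a (6750 CPM in replicate 1 and 7152 CPM in replicate 2), Mir151 (6126 and 8018 CPM) and Mir541 (5962 and 6419 CPM). Their distances were 0.04, 0.19 and 0.27 on the log2 scale. Mir30a shares a run of 18 bases with Mir30e, so its level is uncertain. Closest to Mir425 were Mir484 (1354 and 1246 CPM), Mir181d (1752 and 1355 CPM) and Mir134 (1273 and 1154 CPM), at distances of 0.26, 0.30 and 0.30. Of these, Mir484 is itself on the list of reference miRNAs. With 2 libraries, likeness means a similar level and a similar ratio between the libraries.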

How the data were processed

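Raw counts of reads for each miRNA gene were deposited, made on mm10 with annotation GENCODE M21 as described beside the files. Neither aligner nor counting program is named there or in the labels. The meaning of the 3 count columns was read from their values. The 4 rows that name no gene stayed out of totals and held, on the own strand, 27.5% multiply mapped, 26.4% unmapped and 8.22% unassigned reads outside genes in replicate 1 and 25.9%, 32.0% and 7.54% in replicate 2. Files held 7503044 and 8907701 reads, of which 37.9% and 34.6% were assigned.

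Own-strand counts were the main measure. Log2 ratios added 0.5 counts to each library. No p-value was computed, since there is 1 group. Intervals for shares are Wilson's and those for ratios exact (Clopper-Pearson), both at 95%, and a count of 0 allows 3 counts. The members and lists were chosen with earlier results of these data known. Named genes were the members, overlapping and host genes, seed matches, the 3 nearest genes in level per member, the 3 other strand pairs with the most reads, and up to 4 leading list members with those past 2-fold. The computation of ratios and intervals was checked on simulated Poisson counts with known folds, and that of pairs on a small made-up example. The simulated counts hold no spread between animals, so they say nothing about that spread here. Scaling alternatives used TMM factors (edgeR 4.0.16) and DESeq2 1.42.0 size factors, in R 4.3.3. Other steps used Python 3.11.15, pandas 2.3.3, scipy 1.17.1 and RNAfold 2.7.2.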

Additional observations from a re-analysis of the deposited data

How the results depend on the processing

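No paired analysis was possible because the series has 1 group. Among 69 alternative values, 50 differed from the main value by less than the spread between libraries or the counting interval, or, for counts, by under 1.5 times. Part of this was fixed in advance, so the tally does not measure robustness. Single-library values of mean CPM, share and the log2 ratio of Mir191 over Mir425 always fall within that spread. Gm24083, with 0 counts, stays at 0 under any total. The mean of Mir191 was 0 CPM without strand, 7560 CPM when totals left out Mir122 and 2553 CPM when scaled to all reads. The mean of Mir425 was 1673 CPM without strand, where its counts were nearly the same and the total smaller, and 493.4 CPM when scaled to all reads. The place of Mir191 was 30 with TMM factors, when scaled to all reads and in either library alone. Without strand, the share of both genes was 0.167%, all of it Mir425, and it was 0.900% when totals left out Mir122. The log2 ratio of Mir191, replicate 1 over replicate 2, was 0.010 when scaled to all reads, -0.057 with TMM factors and -0.23 with Mir122 left out, and that of Mir425 was 0.61, 0.54 and 0.37. Scaling to all reads shifts every log2 ratio by 0.13 and leaving out Mir122 by -0.11. Genes past 2-fold numbered 324 of 783 (41.4%) with no filter and 51 of 285 (17.9%) at a minimum of 100 counts, against 22.3%. The cause of the change in share was not tested. In single libraries the mean CPM ran from 6760 to 7357 for Mir191 and from 1132 to 1571 for Mir425, and the log2 ratio of Mir191 over Mir425 from 2.31 to 2.90. Other pair distances and minimums left 53.7% to 57.1% of other neighbouring pairs with a larger difference. Depth limits the value of Gm24083, whose count of 0 sets an upper bound and not a level.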
